A study of Homo sapiens with 21 samples.

Results

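The accessible sites on the first 60 Mb of chromosome 3, most of its short arm, were described in SK-N-BE(2) cells after silencing of ARID1A, ARID1B or both. A site was a member when its annotated start on chromosome 3 lay between base 1 and base 60000000 of GRCh38, which gave 2210 of 367900 sites. The stretch was chosen by the fall of its distal sites after combined silencing. The combined values below are therefore a description without a test, and nothing is drawn from them. SK-N-BE(2) is an established neuroblastoma line, and all cells were transduced with lentiviral short hairpin RNAs and collected at 72 h. The Control group carried a non-silencing hairpin. ARID1A was silenced with hairpin shARID1A.2 or shARID1A.4, and ARID1B with shARID1B.2 or shARID1B.3. The combinations were shARID1A/B.2.3 and shARID1A/B.4.2. Each of the 7 groups had 3 libraries of ATAC-seq, an assay in which the Tn5 transposase cuts open chromatin and the number of reads over a site measures its accessibility. Libraries of a group were samples of 1 cell line, so the p-values measured the spread between these samples, which may be technical.

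ARID1A and ARID1B are alternative subunits of the BAF complex, the form of the SWI/SNF chromatin remodeller that carries one or the other of them. BAF slides and ejects nucleosomes with the energy of ATP, and it is best known for keeping enhancers open, while promoters depend on it less. The short arm of chromosome 3 is lost in part of neuroblastomas and carries known tumour suppressor and chromatin genes, among them VHL, BAP1, SETD2, PBRM1 and RASSF1. Sites annotated as promoters were therefore kept apart from distal sites, which lay over 3000 bases from the nearest transcription start. There were 1790 distal members, 229 promoters and 191 flanking sites in between. A filter on low counts left 1752 distal sites, 228 promoters and 190 flanking sites, and it removed 40 members. Of the tested distal sites, 1013 lay in introns, 667 between genes, 39 in exons and 33 at gene ends. Their nearest genes numbered 376.

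The 21 libraries held 16140029 to 44472230 reads over sites. Promoter sites of adrenergic neuroblastoma genes summed to 113 to 129 CPM, the count scaled to the size of the library, in the Control libraries, 6 of the 11 listed genes having a promoter site, with PHOX2A, GATA3 and GATA2 among those above the median promoter and HAND2 and ISL1 among those without a promoter site. TH and DBH lay below that median. None of the 5 leukocyte marker genes had a promoter site. Of the 6 mesenchymal genes 2 had one, summing to 39.3 to 43.2 CPM, nearly all from TWIST1 (41.1 CPM), and of the 5 epithelial genes 2, summing to 12.3 to 15.6 CPM, mostly from ESRP1 (13.4 CPM, above the median promoter). Control replicate 2 stood slightly apart, with a median over the promoters of the region of -0.16 on the log2 scale against the Control mean, and 0.08 and 0.07 in the other Control libraries.

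The sequences that carry the main contrasts come first, each the central 200 bases of a site on the plus strand of GRCh38. Capitals mark the motifs searched on both strands, which were the GATA motif AGATAA, the E-boxes CAGATG and CAGCTG, the homeobox core TAATTA, the TEAD motif GGAATG and the CTCF core AGGGGGC. The first 4 sites had among the largest falls after combined silencing, the fifth was a site that lay higher, and the last 2 separated ARID1A from ARID1B silencing. They are a selection, and all of them hold a motif. Of the large falls not printed, those near LOC101927174 and ABHD5 held no searched motif in this window. That near UBE2E1 held only GGAATG and that near AC011609.3 only CAGATG. The higher sites near IL5RA, CPNE9 and RBMS3-AS3 held none, nor did the GPD1L site, which also separated the single silencings.
ITGA9 intron, chr3:37521464-37521663: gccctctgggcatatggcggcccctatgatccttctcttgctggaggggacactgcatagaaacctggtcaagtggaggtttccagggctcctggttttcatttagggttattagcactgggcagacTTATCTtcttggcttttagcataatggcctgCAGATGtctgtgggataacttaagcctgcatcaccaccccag
upstream of CACNA2D3, chr3:54046819-54047018: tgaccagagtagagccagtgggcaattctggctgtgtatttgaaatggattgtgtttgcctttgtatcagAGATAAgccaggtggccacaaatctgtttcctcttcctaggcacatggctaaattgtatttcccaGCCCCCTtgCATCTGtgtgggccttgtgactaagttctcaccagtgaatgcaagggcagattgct
intergenic near LOC101927805, chr3:18735079-18735278: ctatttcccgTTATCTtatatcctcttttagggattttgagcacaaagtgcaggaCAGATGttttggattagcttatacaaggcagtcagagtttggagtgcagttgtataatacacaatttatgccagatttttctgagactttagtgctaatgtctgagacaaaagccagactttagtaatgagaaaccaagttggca
EIF1B-AS1 intron, chr3:40268241-40268440: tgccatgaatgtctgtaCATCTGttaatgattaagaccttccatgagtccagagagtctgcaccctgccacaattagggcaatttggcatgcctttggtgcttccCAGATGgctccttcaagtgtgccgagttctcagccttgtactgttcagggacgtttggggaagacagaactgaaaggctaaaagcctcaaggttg
SYN2 intron, chr3:12135110-12135309: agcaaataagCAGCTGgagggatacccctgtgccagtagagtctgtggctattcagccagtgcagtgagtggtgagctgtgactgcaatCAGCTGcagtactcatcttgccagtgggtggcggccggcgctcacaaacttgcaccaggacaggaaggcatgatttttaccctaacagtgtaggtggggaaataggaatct
SLC6A6 intron, chr3:14480418-14480617: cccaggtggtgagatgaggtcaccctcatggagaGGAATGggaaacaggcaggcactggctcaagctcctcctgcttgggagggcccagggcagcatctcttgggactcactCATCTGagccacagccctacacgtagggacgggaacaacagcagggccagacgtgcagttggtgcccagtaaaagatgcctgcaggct
RFTN1 intron, chr3:16441606-16441805: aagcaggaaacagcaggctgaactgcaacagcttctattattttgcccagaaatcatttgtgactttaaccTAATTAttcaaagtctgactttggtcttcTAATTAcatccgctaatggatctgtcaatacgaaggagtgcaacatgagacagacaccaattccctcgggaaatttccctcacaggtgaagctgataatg

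Distal sites of the region took a smaller share of the reads in every silenced group. Reads in the distal members made up 0.574% ± 0.0142 (SD, n = 3) of all distal reads in Control. That share was 0.438% ± 0.0234 in shARID1A/B.2.3 and 0.469% ± 0.00513 in shARID1A/B.4.2. The region was chosen on the fall in these libraries, so their lower share adds no support. It was 0.499% ± 0.0180 in shARID1A.2, 0.519% ± 0.0110 in shARID1A.4, 0.521% ± 0.0107 in shARID1B.2 and 0.512% ± 0.0144 in shARID1B.3. All single-silencing libraries, at 0.479% to 0.533%, lay below the lowest Control library at 0.558%. They were compared with the same Control libraries that had a part in choosing the region. The promoters of the region held 1.16% ± 0.0208 of all promoter reads in Control, and 1.15% ± 0.0346 and 1.15% ± 0.0153 in shARID1A/B.2.3 and shARID1A/B.4.2, which overlapped Control.

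Per library, the median log2 difference of distal members from the Control mean was -0.43, -0.58 and -0.43 in shARID1A/B.2.3 and -0.40, -0.41 and -0.40 in shARID1A/B.4.2. The single silencings lay in between, from -0.33 to -0.09 over 12 libraries, and the Control libraries at 0.05, -0.07 and 0.04. Distal sites of other chromosomes stayed between -0.03 and 0.05 in all 21 libraries.

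**Figure D1:**
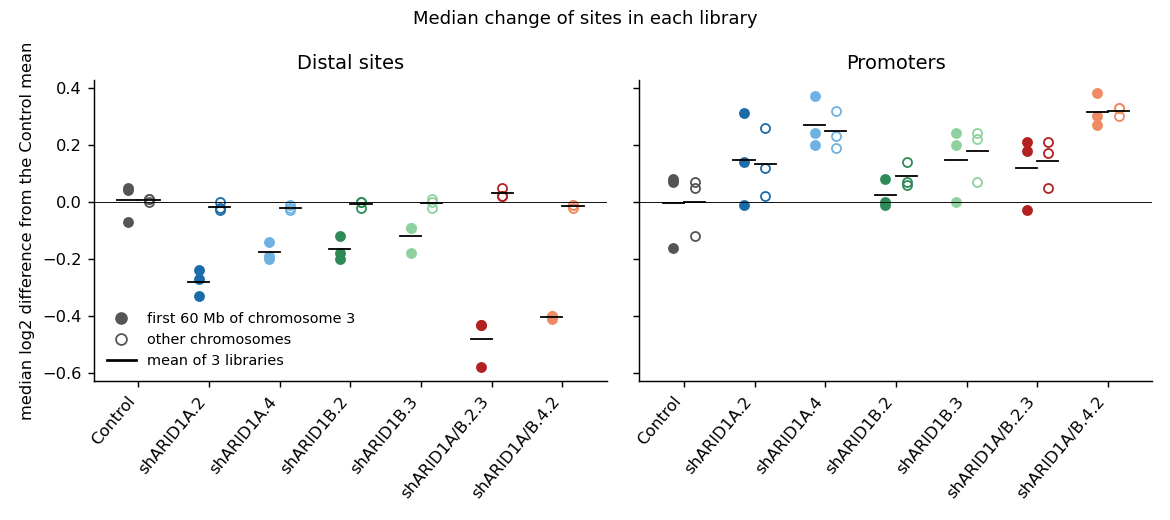
Median log2 difference of sites from the Control mean in each library, for distal sites (left) and promoters (right). Filled points are the first 60 Mb of chromosome 3, open points are other chromosomes, and lines are means of 3 libraries. Distal medians of the region lie at -0.58 to -0.40 in the combinations, while those of other chromosomes stay between -0.03 and 0.05.

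A site was called when edgeR's quasi-likelihood test gave a false discovery rate (FDR) under 0.01 over all 357029 tested sites. After combined silencing 678 of the 1752 distal members were called lower and 28 higher, beside 10.6% and 1.77% of all distal sites, and their median log2 change was -0.48 against 0.02 on other chromosomes. This is the contrast that chose the region. Of the 678 sites, 479 had fallen by a log2 change of at least 1. Among the 890 distal members with a mean of at least 1 CPM, all 6 combination libraries lay below all 3 Control libraries at 391 and above them at 23, beside 17.1% and 4.47% of such sites in the genome.

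Each combination was also set against Control. In shARID1A/B.2.3 662 distal members were called lower, with a background of 10.6%, and in shARID1A/B.4.2 518, with a background of 7.65%. The medians were -0.54 and -0.43. Of the 678 sites, 457 were called lower in both combinations. By position, 394 of 1013 intronic and 262 of 667 intergenic sites were lower, with medians of -0.54 and -0.43, beside 12.0% and 9.39% on other chromosomes. Of the 72 sites in exons or at gene ends 22 were lower, with a median of -0.29, beside 8.95%. Sites 50 to 500 kb from a transcription start had a median of -0.59, with 347 of 816 lower, beside 10.6% on other chromosomes. Sites 3 to 50 kb away had a median of -0.39, with 317 of 904 lower, beside 11.0%. On other chromosomes the median was 0.01 in each of these classes.

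The region was sparse in distal sites. It held 29.2 tested distal sites per Mb, against 149 on the rest of chromosome 3 and 113 on other chromosomes, while its promoters, at 3.80 per Mb, were about as dense as elsewhere (3.35 and 4.28). Distal sites called lower after combined silencing numbered 11.3 per Mb in the region, 13.2 on the rest of chromosome 3 and 11.9 on other chromosomes. Distal sites not called lower numbered 17.9, 136 and 101 per Mb. By the number of lower sites per Mb the region was therefore at 0.95 of other chromosomes, while the share of its tested sites that were lower was 3.69 times theirs. After single silencing the lower sites per Mb were also near those of other chromosomes, but slightly above them. They numbered 6.62 after ARID1A silencing and 4.55 after ARID1B silencing, against 6.25 and 4.07. A stretch of chromosome 1, from 40 to 100 Mb, had the same pattern of few sites (38.8 per Mb), 14.6 lower and 24.2 not lower per Mb, and a median of -0.46. Whether site density has a part in the change was not tested. The number of copies of the region in these cells was not assessed, nor was how well reads map to it. Their part in the number of sites and in the share called lower was therefore not tested either.

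**Figure D2:**
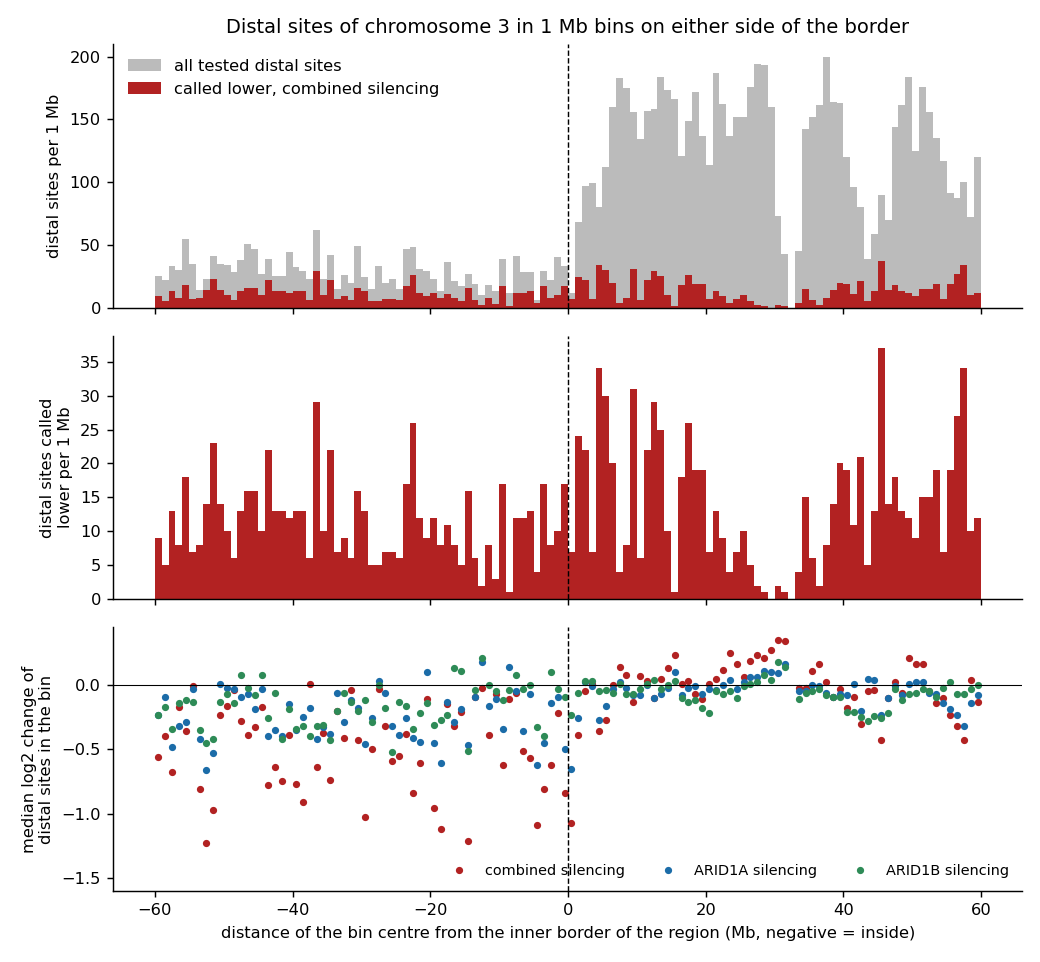
Distal sites of chromosome 3 in bins of 1 Mb against the distance of the bin centre from the inner border of the region, negative values being inside. Grey bars are all tested distal sites, red bars those called lower after combined silencing, and points are bin medians in 3 contrasts against Control. The last bin inside holds 33 sites with 17 called lower, and the next 3 bins outside hold 12, 68 and 97 sites with 7, 24 and 22 called lower.

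Distal members were also not weaker than other distal sites. Their median level in Control was 1.21 CPM against 0.980 on other chromosomes, in narrower sites (614 against 754 bases), or 2.14 against 1.34 CPM per kilobase. Promoters of the region had a median of 8.48 CPM against 10.9, or 5.15 against 6.48 CPM per kilobase. At matched levels the share called lower was above that of other chromosomes up to 8 CPM and below it over 8 CPM. Among sites of 2 to 8 CPM, 231 of 403 (57.3%) members were lower with a median of -0.60, against 24.2% and -0.06 on other chromosomes. Below 0.5 CPM the shares were 24.2% and 2.24%. Of 37 members of 8 to 16 CPM 8 were lower (21.6%, median 0.15), against 48.3% (median -0.29) on other chromosomes. Over 16 CPM there were 8 members, 2 of them lower (median -0.08), against 31.4% (median 0.05).

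**Figure D3:**
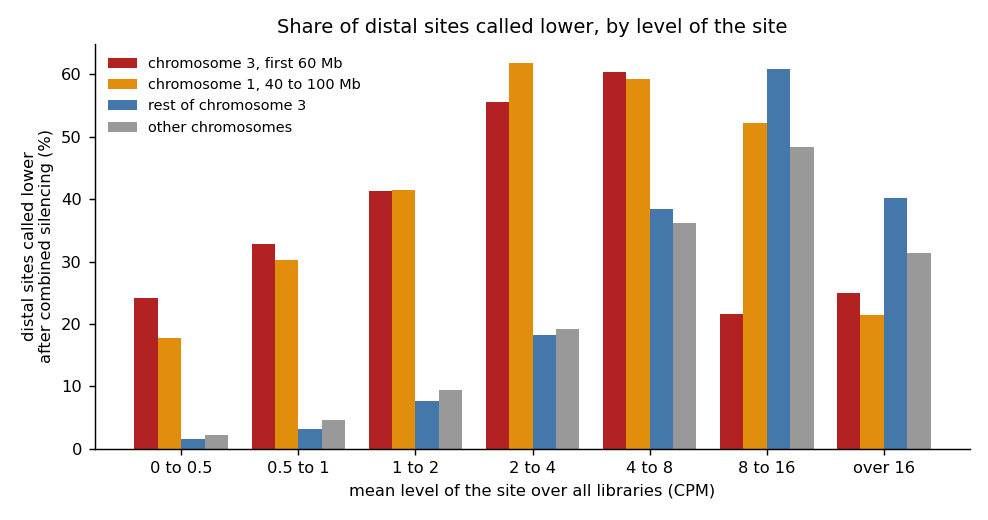
Share of distal sites called lower after combined silencing, by mean level of the site in CPM over all libraries. Bars start at 0 and are the first 60 Mb of chromosome 3, the stretch of chromosome 1, the rest of chromosome 3 and other chromosomes. At 2 to 4 CPM the region has 55.6% and other chromosomes 19.2%, and at 8 to 16 CPM 21.6% and 48.3%.

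The largest falls were read at 8 sites near different genes, taken by the size of the combined change among sites of at least 1 CPM with no overlap between combination and Control libraries. They are a description, since the same contrast chose them. The site inside ITGA9, at chr3:37521083-37522043, lies in an intron of the gene for integrin alpha-9, a receptor for matrix proteins. It had 3.65, 2.46 and 3.16 CPM in Control and 0.417 to 0.789 CPM in the 6 combination libraries, with a median of 0.634, a combined log2 change of -2.32. Each single silencing took it most of the way, to 0.624 to 1.43 CPM with ARID1A hairpins and 0.528 to 1.56 CPM with ARID1B hairpins. Of the latter, shARID1B.3 was lower than shARID1B.2 by a log2 difference of -1.09 (edgeR FDR 9.06e-04).

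The site 75675 bases upstream of CACNA2D3, which encodes an auxiliary subunit of voltage-gated calcium channels, had 2.69, 3.07 and 3.12 CPM in Control. It had 0.321 to 0.601 CPM in the combinations (log2 change -2.61). Its hairpins differed: shARID1B.2 left 2.65, 2.53 and 2.11 CPM and shARID1B.3 0.445, 0.581 and 0.671 CPM. The log2 difference of shARID1B.3 from shARID1B.2 was -2.12 ± 0.25 (SE; edgeR FDR 4.79e-11). That of shARID1A.2 from shARID1A.4 was 1.24 ± 0.30 (SE; edgeR FDR 0.00462).

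The lowest change of these 8 was at an intergenic site near the start of the chromosome, chr3:85087-85902, nearest to the uncharacterised gene LOC101927174. It had 6.62, 8.60 and 6.19 CPM in Control and 0.786 to 1.24 CPM in the combinations (median 1.05, log2 change -2.78). The 6 ARID1A libraries had 2.05 to 2.87 CPM. The ARID1B hairpins lay on either side of them, shARID1B.2 at 3.69, 4.11 and 3.62 CPM and shARID1B.3 at 1.78, 1.63 and 1.30 CPM, a log2 difference of -1.25 ± 0.17 (SE; edgeR FDR 1.20e-08). The difference of 0.08 ± 0.12 between ARID1A and ARID1B silencing (edgeR FDR 0.830) averages over that split.

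A second site near that end, by AC011609.3 at chr3:424921-425549, fell less with ARID1A than with ARID1B silencing. Control libraries had 7.24, 8.31 and 6.51 CPM, the 6 ARID1A libraries 3.06 to 5.69 CPM and the 6 ARID1B libraries 1.84 to 3.49 CPM. The log2 difference of ARID1A from ARID1B silencing was 0.67 ± 0.11 (SE; edgeR FDR 4.79e-06). The combinations had 0.642 to 1.51 CPM, below every single-silencing library.

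The intergenic site near ABHD5, a co-activator of lipolysis, had 2.64 ± 0.210 CPM (SD, n = 3) in Control and was at 0.262 to 0.849 CPM in the combinations. ARID1A silencing left 0.921 to 1.72 CPM, shARID1B.2 1.75, 1.24 and 1.47 CPM and shARID1B.3 0.417, 0.325 and 0.335 CPM. The intergenic site near UBE2E1, a ubiquitin-conjugating enzyme, had the opposite order. It had 3.50, 3.44 and 3.12 CPM in Control, 1.25 to 1.94 CPM with ARID1A hairpins, 1.70 to 2.79 CPM with ARID1B hairpins and 0.508 to 0.753 CPM in the combinations. The log2 difference of ARID1A from ARID1B silencing was 0.86 ± 0.19 at ABHD5 (SE; edgeR FDR 6.36e-04) and -0.62 ± 0.14 at UBE2E1 (edgeR FDR 9.21e-04). At ABHD5 only shARID1B.3 lay apart from the ARID1A libraries (log2 difference from shARID1B.2 -2.04 ± 0.28, edgeR FDR 1.74e-08). The site in an intron of EIF1B-AS1, antisense to a translation initiation factor gene, had 2.55 CPM in Control and 0.933 to 1.13 CPM as means of the 6 libraries of each single silencing. It fell by 2.34 on the log2 scale with both silenced.

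**Figure D4:**
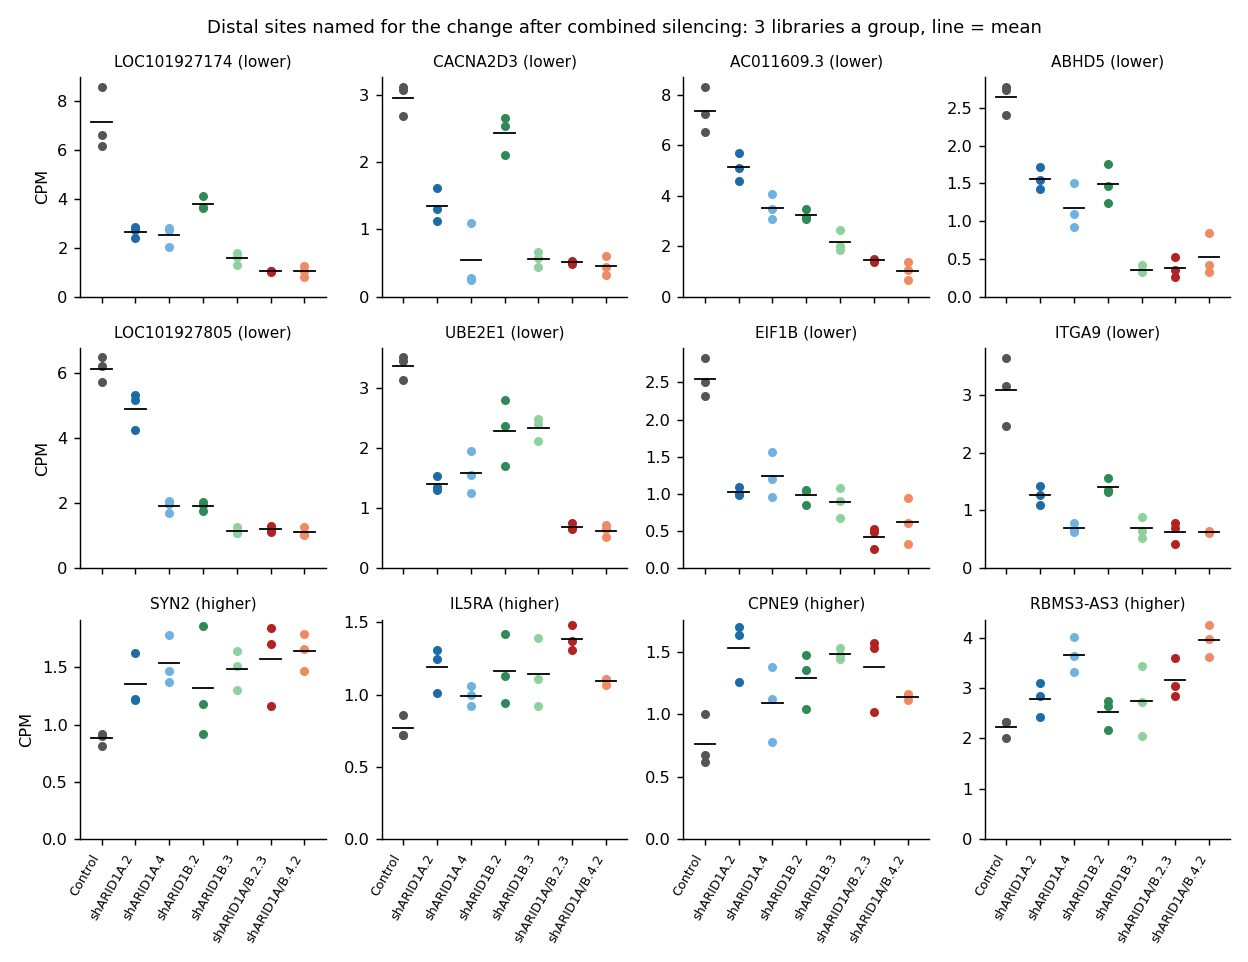
CPM in each library at the 12 distal sites named for the change after combined silencing, 3 libraries a group, with the mean as a line and axes from 0. At the 8 lower sites the combination libraries lie below every Control library. At the 4 higher sites they lie above, by less.

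Rises were smaller. The 4 sites with the largest rise by the same rule had combined log2 changes of 0.65 to 0.83. The site in an intron of SYN2, which encodes the synaptic vesicle protein synapsin II, had 0.815, 0.901 and 0.919 CPM in Control and 1.16 to 1.84 CPM in the combinations (median 1.68). The other 3 lay in introns of CNTN4, an axonal adhesion molecule (log2 change 0.69), CPNE9, a copine (0.68), and RBMS3, an RNA-binding protein (0.65). None of these 4 differed between ARID1A and ARID1B silencing, with edgeR FDRs of 0.210 to 0.879.

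Single silencing gave part of the distal change. These contrasts share the Control libraries with the combined one. After ARID1A silencing 397 distal members were called lower and 28 higher, beside 5.56% and 0.797% of all distal sites, and the median log2 change was -0.26 against -0.03 on other chromosomes. After ARID1B silencing 273 were lower and 16 higher, beside 3.65% and 0.980%, with medians of -0.15 and -0.02. By hairpin, 315 members were lower in shARID1A.2 (background 4.68%), 281 in shARID1A.4 (4.33%), 137 in shARID1B.2 (1.89%) and 337 in shARID1B.3 (5.04%). Of the 678 sites lower after combined silencing, 390 were also lower after ARID1A silencing, 267 after ARID1B silencing, 208 after each and 229 after neither. Neither this split nor the 479 and 457 sites above were counted over the genome, so they describe the members only. The counts of higher sites after ARID1A and ARID1B silencing were 6 and 8 without Control replicate 2, and 14 and 9 without Control replicate 1. After ARID1A silencing they were 13 without shARID1A.2 replicate 1 or shARID1A.4 replicate 1, and 16 without shARID1A.2 replicate 3. With scaling on promoter sites they were 2 and 7, and the medians -0.46 and -0.30, or -0.23 and -0.14 relative to other distal sites. DESeq2 called 259 and 180 distal members lower.

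The direct comparison of ARID1A with ARID1B silencing, which uses no Control library, called 167 distal members lower and 53 higher with ARID1A silenced. The background was 3.77% and 0.936%, and the members' median difference was -0.04. TAATTA lay in the central 300 bases of 32.3% of the lower sites, 7.55% of the 53 higher sites and 10.9% of all distal members. By median these sets had a GC content of 43.3%, 41.0% and 47.3% in that window and lengths of 885, 1079 and 614 bases. The shares were read after the calls were known and are a description. They were not counted for sites called in this comparison on other chromosomes.

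In an intron of SLC6A6, the taurine transporter gene, a site at chr3:14480035-14480999 had 0.829 to 1.22 CPM in the 6 ARID1A libraries (median 0.925) and 2.51 to 3.77 CPM in the 6 ARID1B libraries. Control had 2.97, 2.25 and 2.80 CPM. The combinations had 0.695 to 1.20 CPM, as low as ARID1A silencing alone. The log2 difference of ARID1A from ARID1B silencing was -1.59 ± 0.15 (SE; edgeR FDR 6.32e-15).

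The site in an intron of RFTN1, a lipid raft protein gene, carried both printed TAATTA cores. It had 1.03 to 2.44 CPM with ARID1A silenced and 2.46 to 5.01 CPM with ARID1B silenced. Control, at 3.31, 2.09 and 2.08 CPM, overlapped both. The log2 difference was -1.29 ± 0.13 (SE; edgeR FDR 7.47e-13). Near GPD1L, a glycerol-3-phosphate dehydrogenase-like gene, another site had 1.48 to 2.35 CPM with ARID1A and 2.80 to 6.97 CPM with ARID1B silenced, a log2 difference of -1.36 ± 0.13 (SE; edgeR FDR 5.61e-15). Hairpins against ARID1B differed at both, shARID1B.3 being higher than shARID1B.2 by 0.68 at RFTN1 (edgeR FDR 7.85e-04) and by 1.01 at GPD1L (edgeR FDR 6.54e-08). At RFTN1 the ARID1A hairpins differed too, by -0.90 for shARID1A.2 from shARID1A.4 (edgeR FDR 0.00553). There shARID1A.4 was not called against Control (log2 change -0.22, edgeR FDR 0.563). None of the 3 overlapped between the 2 silencings, but they were picked by the smallest p of this contrast, so that adds no support.

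The opposite order was clearest in an intron of LOC339862, where ARID1A libraries had 5.12 to 7.21 CPM, like the 6.14, 5.82 and 5.40 CPM of Control, and ARID1B libraries 2.68 to 4.73 CPM. The log2 difference was 0.83 ± 0.10 (SE; edgeR FDR 9.47e-11). The intergenic site near LOC101927805 at chr3:18734605-18735751, printed above, had 6.19, 6.47 and 5.72 CPM in Control, 1.08 to 2.02 CPM with ARID1B silenced and 1.01 to 1.30 CPM in the combinations. With ARID1A silenced its hairpins split, into 4.24, 5.30 and 5.15 CPM for shARID1A.2 and 1.96, 2.07 and 1.69 CPM for shARID1A.4. A log2 difference of 1.35 ± 0.16 (SE; edgeR FDR 9.03e-10) separated the hairpins, more than the 1.05 ± 0.13 (edgeR FDR 6.67e-10) that separated ARID1A from ARID1B silencing. The intergenic site at chr3:30273120-30274017 near LOC101927995 was higher with ARID1A than with ARID1B silenced by 0.81 ± 0.10 (SE; edgeR FDR 1.79e-10), and shARID1B.3 was the low group (1.95, 2.11 and 2.35 CPM against 4.92, 5.29 and 5.09 CPM in shARID1B.2).

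Hairpins against the same gene differed at many distal members. The shARID1A.2 libraries were lower than shARID1A.4 at 74 sites and higher at 31, with backgrounds of 1.73% and 0.764%. The shARID1B.3 libraries were lower than shARID1B.2 at 200 and higher at 130, with backgrounds of 4.38% and 2.80%. The combinations differed too, shARID1A/B.2.3 being lower at 119 and higher at 53 (3.13% and 1.47%). Each of these shares was above the genome's. The hairpin pairs and the combinations share no library. Of the 74 sites lower in shARID1A.2, 26 (35.1%) were also lower in shARID1A/B.2.3, which is 21.8% of the latter's 119. Of the 200 lower in shARID1B.3, 59 (29.5%) were also lower in shARID1A/B.2.3, or 49.6% of the 119. In the opposite direction there were 0 and 2. These overlaps were not counted over the genome, so they describe the members only. Leaving out 1 library at a time took the lower and higher counts down to 49 and 17 for the ARID1A hairpins, 147 and 79 for the ARID1B hairpins and 69 and 33 for the combinations.

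An intron of THRB, the thyroid hormone receptor beta gene, held such a site at chr3:24198013-24200199. It had 5.95, 6.23 and 5.20 CPM in Control, 2.12, 3.32 and 3.49 CPM in shARID1A.2 and 7.99, 8.80 and 8.74 CPM in shARID1A.4. The ARID1B hairpins were split too, at 6.10, 5.74 and 7.11 CPM in shARID1B.2 and 3.34, 3.00 and 2.81 CPM in shARID1B.3 (log2 difference -1.05 ± 0.14, SE; edgeR FDR 6.03e-09). The combinations had 2.55, 2.11 and 1.80 CPM in shARID1A/B.2.3 and 6.48, 6.47 and 6.24 CPM in shARID1A/B.4.2. The log2 differences were -1.51 ± 0.14 for the ARID1A hairpins (edgeR FDR 5.56e-14) and -1.56 ± 0.15 for the combinations (edgeR FDR 1.71e-14).

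In an intron of KAT2B, a histone acetyltransferase gene, a site had 11.3, 12.5 and 11.1 CPM in Control and 11.1, 11.6 and 10.4 CPM in shARID1B.2, but 3.89, 4.41 and 3.02 CPM in shARID1B.3. The log2 difference was -1.52 ± 0.12 (SE; edgeR FDR 3.60e-18). At chr3:30145168-30145683 near LOC101927995, shARID1B.2 with 4.63, 3.38 and 3.99 CPM lay above Control (1.97, 1.27 and 1.32 CPM), and shARID1B.3 with 0.278, 0.581 and 0.545 CPM below it. That log2 difference, -3.09 ± 0.23 (SE; edgeR FDR 4.39e-20), was the largest of the named ones.

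Along the region the change was broad. In bins of 1 Mb the median change of distal sites after combined silencing was negative in 59 of 60 bins, from -1.23 to 0.01, beside 51.5% of the 2684 bins of the other chromosomes. It was negative in 55 bins after ARID1A and in 51 after ARID1B silencing, beside 60.2% and 53.4% of bins on other chromosomes and 66.7% and 75.4% on the rest of chromosome 3. Bins held 28.0 tested distal sites by median. When the reads of a bin's distal sites were summed and tested, 36 bins were lower and 0 higher after ARID1A silencing, beside 31.0% and 1.34% of all 2909 bins. After ARID1B silencing 29 were lower and 0 higher, beside 18.3% and 2.34%. With ARID1A against ARID1B silencing 10 were lower and 1 higher (13.5% and 0.963%), and between the combinations 9 and 1 (17.6% and 5.67%), which is a smaller share than in the genome in both directions.

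Among bins with at least 20 distal sites the lowest medians lay at 7 to 8 Mb (-1.23, 14 of 23 sites lower), where 15 sites were nearest to AC087859.1, and at 45 to 46 Mb (-1.21, 16 of 27). The next were 30 to 31 Mb (-1.03, 13 of 24), 8 to 9 Mb (-0.97, 23 of 41) and 40 to 41 Mb (-0.96, 12 of 23). Summed reads at 7 to 8 Mb were 50.6 ± 2.84 CPM (SD, n = 3) in Control and 23.7 and 24.7 CPM as means of the combinations. They were 32.1 CPM in shARID1A.2, 34.3 CPM in shARID1A.4, 44.5 CPM in shARID1B.2 and 32.5 CPM in shARID1B.3, so that the difference of ARID1A from ARID1B silencing (-0.20 ± 0.04 on the log2 scale, SE; edgeR FDR 4.90e-04) lay with shARID1B.2. The bin at 41 to 42 Mb, with 13 distal sites, had the lowest such difference, -0.34 ± 0.04 (edgeR FDR 3.07e-05), and only the bin at 18 to 19 Mb was called the other way (0.16 ± 0.04, edgeR FDR 0.00280).

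The highest medians among bins with at least 20 distal sites were 0.01 at 22 to 23 Mb, -0.01 at 5 to 6 Mb and -0.03 at 32 to 33 Mb, with 6 of 23, 7 of 35 and 5 of 33 sites lower. At 5 to 6 Mb the combinations differed: the bin had 70.0 ± 2.95 CPM in shARID1A/B.2.3 and 89.6 ± 1.08 CPM in shARID1A/B.4.2 (SD, n = 3 each), with Control between them, a log2 difference of -0.36 (edgeR FDR 4.67e-05).

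The change did not stop at the border. The last bin inside had a median of -0.84 (17 of 33 sites lower) and the first outside -1.07 (7 of 12). The bins at 61 to 62 and 62 to 63 Mb had 68 and 97 sites and medians of -0.39 and -0.05. The last distal site inside, in an intron of FHIT, had a combined log2 change of 0.10, and the first outside, also in FHIT, -1.61. Over all 2882 bins the median change and the number of sites had a Spearman correlation of 0.267 (0.231 in the 2684 bins outside chromosome 3), given as a description across bins that share libraries. Bins of other chromosomes with 20 to 29 sites had a median of -0.01, against -0.56 for the 23 bins of the region with that number. With 30 to 39 sites the medians were -0.16 and -0.28, and with 40 to 59 sites -0.15 and -0.39.

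By nearest gene, 53 genes had at least 10 tested distal sites, and the median change after combined silencing was negative at 51 of them, beside 52.7% of 8337 such genes in the genome. The lowest were LOC102723609 (-1.43, 8 of 11 sites lower), LOC101927995 (-1.39, 8 of 12), GRM7, a metabotropic glutamate receptor gene (-1.32, 8 of 11), ITGA9 (-1.28, 8 of 11), VENTXP7 (-1.16, 10 of 15), CTNNB1 (-1.15, 10 of 12), LOC101928153 (-1.13, 12 of 18) and RARB (-1.08, 13 of 20). Of the 18 sites nearest to LOC101928153, 16 also lay within ITGA9. Of the 12 nearest to CTNNB1, 7 lay within ULK4 and 1 within CTNNB1 itself, which was not called (-0.10). CTNNB1 encodes beta-catenin, the effector of Wnt signalling, and RARB the retinoic acid receptor beta, a retinoid-responsive gene. After ARID1A silencing the medians of these 8 genes were -0.81 to -0.55, and after ARID1B silencing -0.84 to -0.21. GRM7 and VENTXP7 were the ones lower after ARID1B (-0.84 and -0.68) than after ARID1A silencing (-0.73 and -0.59). The highest medians were at NUP210, a nuclear pore gene (0.12, 1 of 11 lower), EOMES, a T-box factor gene (0.07, 3 of 10), VGLL4, a TEAD cofactor gene (1 of 13), and MIR4790 (2 of 12), the last 2 with medians just below 0.

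**Figure D5:**
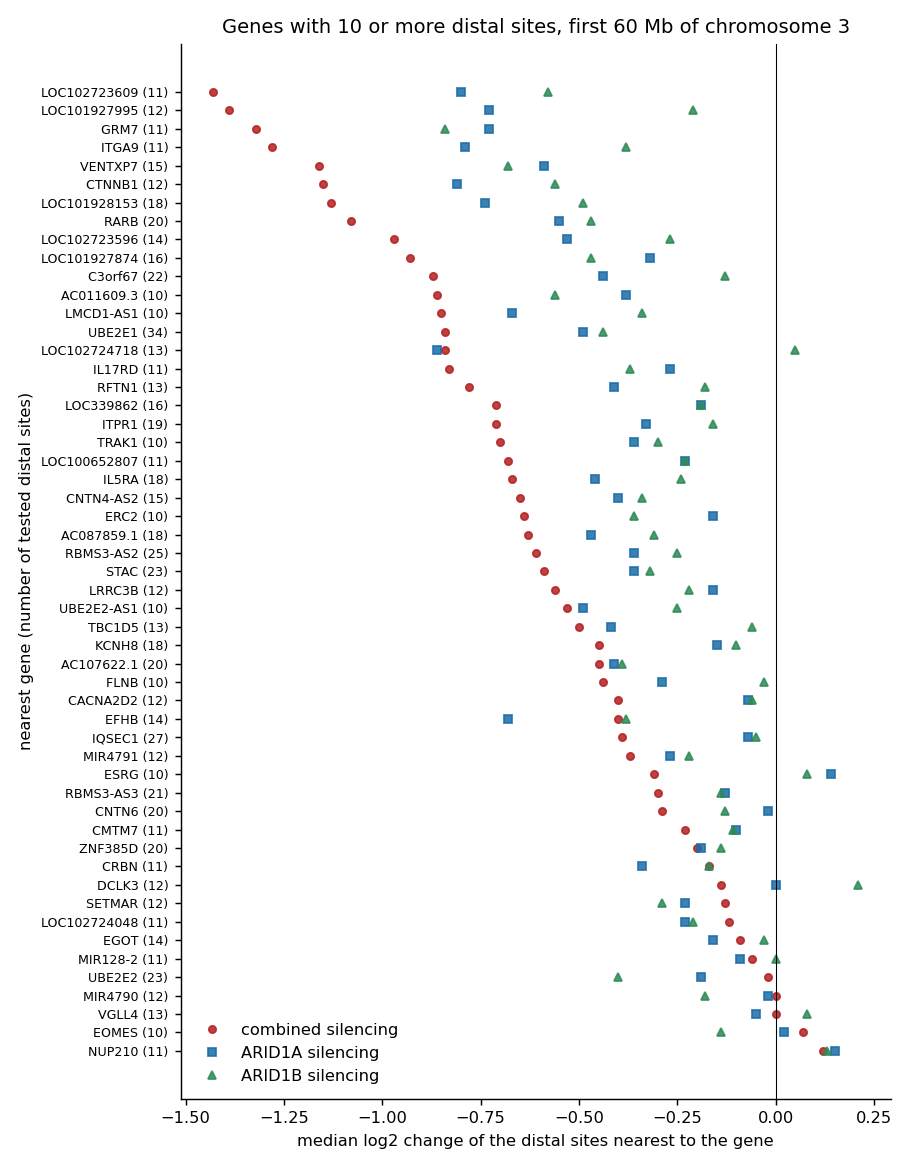
Median log2 change of distal sites by nearest gene, for the 53 genes with at least 10 tested distal sites, with the number of sites in brackets. Circles, squares and triangles are combined, ARID1A and ARID1B silencing, each against Control. Medians after combined silencing run from -1.43 to 0.12.

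Gene groups of the region were read by the sites nearest to their members, and the groups had been set with earlier results known. All had negative distal medians after combined silencing, and over all distal members the median was -0.48 with 38.7% lower (10.6% in the genome). Matrix, integrin and cytoskeleton genes were lowest, at -0.93, with 43 of 72 distal sites lower and 1 higher. Signalling ligands, receptors and kinases had 31 of 56 lower and 1 higher (-0.83), 3p tumour suppressor genes 25 of 52 and 0 (-0.69), and chromatin regulators 36 of 77 and 1 (-0.62). Neuronal adhesion, guidance and synapse genes had 73 of 175 lower and 2 higher (-0.59), transcription factors and nuclear receptors 35 of 86 and 0 (-0.48), and chemokine receptors and leukocyte genes 9 of 34 and 1 (-0.51). The shares of the neuronal and transcription factor groups were near that of all members. After ARID1A silencing the matrix group had 28 of its 72 sites lower and after ARID1B silencing 20, beside 22.7% and 15.6% of all distal members. In the direct comparison, which called 9.53% of all distal members lower and 3.03% higher, 12 were lower with ARID1A silenced and 1 higher. Of the 77 sites near chromatin regulators 9 were lower and 1 higher, and of the 175 near neuronal adhesion genes 10 and 5.

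Among the tumour suppressor and chromatin genes of the arm, distal sites were few. No distal site was nearest to SETD2 or RASSF1, 1 each to VHL and SMARCC1 and 2 each to BAP1 and PBRM1, and none of these was called after combined or single silencing. FHIT, a fragile-site gene whose start lies outside the region, had 10 distal sites in its introns, with 4 lower and a median of -0.74. Within gene bodies, CNTN4 had 11 of 32 distal sites lower (-0.66), ITGA9 19 of 27 (-1.25), CACNA2D3 12 of 25 (-0.58), SRGAP3 12 of 18 (-0.82), RARB 8 of 18 (-0.49) and THRB 5 of 9 (-0.63). CHL1, a neural adhesion gene, had 2 of 9 (-0.64).

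At promoters of the region the picture was another. After combined silencing 10 of 228 were called lower and 59 higher, beside 4.24% and 33.5% of all promoters, and their median log2 change was 0.22 against 0.23 on other chromosomes, but -0.02 when libraries were scaled on promoter sites and 0.07 with GC offsets. Of 213 promoters of at least 1 CPM, all combination libraries lay below Control at 10 and above it at 45, beside 3.76% and 28.6% of such promoters in the genome. After ARID1A silencing 4 were lower and 30 higher (2.00% and 18.0%), with a median of 0.20, which became -0.00037 with scaling on promoter sites. After ARID1B silencing 1 was lower and 6 higher (1.19% and 9.37%), with a median of 0.09, or -0.05 with that scaling. Counts of called promoters rested in part on Control replicate 2: without it 14 in place of 34 were called after ARID1A silencing and 1 in place of 7 after ARID1B silencing. The share of all reads over sites that lay in promoters differed over the same groups, at 20.0% to 20.6% in Control and 23.5% to 25.1% in the combinations, and its part in these counts was not tested.

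The direct comparison of ARID1A with ARID1B silencing called 14 promoters (background 5.15%), shARID1A.2 against shARID1A.4 5 (3.74%), shARID1B.3 against shARID1B.2 16 (7.94%) and the combinations 24 (14.6%). All 24 were lower in shARID1A/B.2.3 than in shARID1A/B.4.2.

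The promoter with the largest fall was that of FAM107A, an actin-associated protein gene, with 3.50, 2.87 and 3.52 CPM in Control and 0.881 to 1.97 CPM in the combinations (median 1.43, log2 change -1.28). PLCL2, a phospholipase C-like gene, had 5.69 CPM in Control and 1.95 to 3.37 CPM in the combinations (log2 change -1.05). The promoter of LINC00852 separated the single silencings. It had 2.21, 1.76 and 2.12 CPM in Control, 0.931 to 1.61 CPM with ARID1A and 1.97 to 2.84 CPM with ARID1B silenced, a log2 difference of -0.93 ± 0.15 (SE; edgeR FDR 2.84e-06). The largest rises were at TMEM42 (8.37 to 11.7 and 14.0 CPM as group means, log2 change 0.61), LOC101928838 (0.58) and DUSP7, an ERK phosphatase gene (0.57).

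The promoter of BHLHE40, a circadian and hypoxia-responsive repressor gene, split by hairpin. It had 39.2, 34.0 and 35.3 CPM in Control, 41.8, 35.4 and 35.8 CPM in shARID1A.2 and 61.6, 56.8 and 53.1 CPM in shARID1A.4. In shARID1A/B.2.3 it had 38.8, 36.4 and 34.3 CPM and in shARID1A/B.4.2 a mean of 61.7 CPM, a log2 difference of -0.76 ± 0.09 (SE; edgeR FDR 2.55e-11).

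Of the 22 genes of the arm that were followed by name, 13 had a site annotated as promoter under their own name. Promoters annotated under another gene's name and flanking sites were not counted, so the others may still have an accessible promoter. RHOA, a small GTPase, had 10.5 ± 1.16 CPM in Control and 13.8 CPM as the mean of the ARID1A libraries (log2 change 0.40, edgeR FDR 0.00159). The ARID1B libraries had a mean of 13.6 CPM (log2 change 0.38, edgeR FDR 0.00304). BAP1, a deubiquitinase, had 11.8 ± 1.11 CPM and a change of 0.30 after ARID1A silencing (edgeR FDR 0.0325). CHL1 was higher with ARID1A than with ARID1B silenced, at 7.88 against 6.26 CPM (log2 difference 0.33, edgeR FDR 0.00665). CTNNB1 and RARB, with the low distal medians above, had promoters at 15.2 ± 0.604 and 13.6 ± 1.15 CPM in Control and at 16.9 and 11.9 CPM with ARID1A silenced (edgeR FDRs 0.353 and 0.158).

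The sequence of the central 300 bases differed between lower and other distal members. The E-box CAGATG was held by 35.5% of the 678 lower sites and by 26.7% of all distal members. Of the lower sites and the 1074 others, 16.4% and 7.45% held TAATTA and 23.3% and 17.9% AGATAA. The CTCF core AGGGGGC was held by 4.72% and 10.3%, and the GC box GGGCGG by 4.87% and 11.0%. On other chromosomes the lower and other distal sites held CAGATG at 33.0% and 22.5%, TAATTA at 14.1% and 7.44% and AGGGGGC at 4.32% and 5.01%. Lower members had a GC content of 45.0% by median in that window, and the others 48.7%, and they were longer (776 against 513 bases). The AP-1 motif TGANTCA was held by 15.3% and 11.8% of the members, and 65.8% of the region's promoters held the GC box. These shares describe letters in a window and no factor's binding.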

How the data were processed

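ATAC-seq was run on SK-N-BE(2) cells in 7 groups of 3 libraries, with Tn5 tagmentation and PCR as the study describes. The authors deposited raw read counts over 367900 consensus sites, with an annotation of each site on GRCh38, the build named in the submitters' processing notes. Those notes also name DESeq2. Aligner and peak caller: not given in the sources used here. Besides raw counts, the tables hold normalized counts and DESeq2 fold changes and p-values of each silenced group against Control, which were not used. Intervals and errors cover the spread between libraries, and reads without molecular identifiers are not independent molecules.

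Counts were fitted over all 7 groups with edgeR 4.0.16 in R 4.3.3 (TMM scaling, quasi-likelihood test, Benjamini-Hochberg adjustment). Of all sites, 357029 passed the filter on low counts (filterByExpr, minimum count 10), and an FDR under 0.01 was a call. Combined, ARID1A and ARID1B silencing are means of their 2 groups. CPM values were computed here from the counts and TMM-scaled library sizes. For bins, reads of distal sites within 1 Mb were summed and fitted the same way. DESeq2 1.42.0, other scalings, GC offsets, filters, bin sizes and leaving out each library were tried as alternatives. The fit was tested on simulated data. Replicates of a group differed by more than counting noise (chi-square per degree of freedom 1.08 to 2.54).

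Genes were named from the annotation, the gene of a distal site being that of the nearest transcription start. Named sites had a mean of at least 1 CPM, with 1 site a gene. For combined silencing the 8 distal sites with the largest falls, the 4 with the largest rises and 3 promoters each way were taken, with all combination libraries beyond all Control libraries. For contrasts between silenced groups the 3 distal sites with the smallest p each way and 1 promoter were taken. Also named were 22 genes of the arm, the 8 lowest and 4 highest genes with at least 10 distal sites, and the 5 lowest and 3 highest bins with at least 20. Some items that these rules select are not reported here. A gene of a distal site is a name by distance. The region, its members and the gene lists were chosen with earlier results of these data known. The sequences were read from the GRCh38 reference. Reads with a near-identical copy elsewhere, and overlapping genes, were not separated.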

Additional observations from a re-analysis of the deposited data

Results flagged for a closer look

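Differences between silenced groups, found by a direct test of one group against the other, are gathered here. With 3 libraries a group, single libraries were not tested as outliers. Counts are of members called by edgeR's quasi-likelihood test at an FDR under 0.01. ARID1A against ARID1B silencing called 167 distal sites lower, 53 higher and 14 promoters. The hairpin shARID1A.2 against shARID1A.4 called 74 lower, 31 higher and 5 promoters, and shARID1B.3 against shARID1B.2 called 200 lower, 130 higher and 16 promoters. The combination shARID1A/B.2.3 against shARID1A/B.4.2 called 119 lower, 53 higher and 24 promoters. By bins of 1 Mb, ARID1A against ARID1B silencing called 11 of 60, near the share of all bins (13.5% lower and 0.963% higher). The combinations called 10, a smaller share than that of all bins (17.6% and 5.67%).

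The log2 differences of ARID1A from ARID1B silencing were -1.36 at GPD1L, -1.59 at SLC6A6, -1.29 at RFTN1 and -0.93 at the LINC00852 promoter. They were 0.83 at LOC339862, 0.81 at LOC101927995 and 1.05 at LOC101927805.

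Between the combinations the lower sites were LOC101927854 in THRB (-1.56), CTDSPL, a phosphatase gene (-1.88), AC107622.1 (-2.05) and the BHLHE40 promoter (-0.76). The higher ones were LOC101929530 (1.20), AC087859.1 in GRM7 (1.51) and SETMAR, its site lying in SUMF1 (1.07). At LOC101929530 shARID1A/B.2.3 had 11.3, 8.83 and 11.2 CPM and shARID1A/B.4.2 4.24, 4.50 and 4.76 CPM, on either side of Control (6.76, 5.94 and 6.99 CPM).

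Between the ARID1A hairpins the lower sites included MIR4442 in TOP2B (-1.62), LOC101927854 (-1.51) and the BHLHE40 promoter (-0.60), and the higher ones LOC101927805 (1.35), ZNF385D (1.27) and STAC (0.80).

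Between the ARID1B hairpins the lower sites were LOC101927995 (-3.09), KAT2B (-1.52), C3orf67 (-1.64) and the LOC101929054 promoter (-1.44). The higher ones were IL5RA in CNTN4 (2.15), EIF1B-AS1 (1.60) and TBC1D5, a Rab regulator gene (1.34). At the IL5RA site shARID1B.3 had 2.64, 2.67 and 2.60 CPM and shARID1B.2 0.615, 0.506 and 0.642 CPM, with Control between them at 1.06, 1.88 and 1.40 CPM.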

How the results depend on the processing

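All 84 alternatives run for the named differences (DESeq2 and each library left out) kept their direction and their call. For counts and medians, each result under each setting was compared with the reported value. Of these comparisons 511 stayed near it, 93 were weaker, 27 were stronger and 18 moved a median, and the cause was not tested. Near was a loose rule for counts: 290 lower distal sites in place of 397 after ARID1A silencing passed as near. Promoter counts were the least stable.

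DESeq2 called 259 distal sites lower and 18 higher after ARID1A silencing, 180 and 8 after ARID1B silencing, 64 higher between the ARID1B hairpins and 33 between the combinations. Its promoter counts were 4 for ARID1B silencing, 8 for ARID1A against ARID1B silencing and 3 for the ARID1A hairpins. At an FDR under 0.05 higher distal sites numbered 55 after ARID1A silencing, 41 after ARID1B silencing, 89 between them, 56 and 215 between hairpins and 90 between combinations, with 195 lower for the last. Promoters then numbered 73, 14, 24, 10, 38 and 42. Where a change of 1 on the log2 scale was also asked for, lower and higher distal sites numbered 172 and 3 (ARID1A silencing), 114 and 8 (ARID1B silencing), 53 and 5 between them, 34 and 16 between ARID1A hairpins, 120 and 82 between ARID1B hairpins and 54 and 32 between combinations, and promoters 0, 0, 0, 0, 3 and 2.

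Scaling on promoter sites gave distal medians of -0.71, -0.46 and -0.30 and promoter medians of -0.018, -0.00037 and -0.052 after combined, ARID1A and ARID1B silencing. Higher distal sites were then 2 and 7 after ARID1A and ARID1B silencing and 73 between ARID1B hairpins, lower ones 66 between combinations, and promoters 17 (ARID1A silencing), 3 (ARID1A hairpins) and 14 (combinations). Bins called were 55, 45, 17 and 0. GC offsets gave promoter medians of 0.075 and 0.055 after combined and ARID1A silencing and 17 and 11 promoters after ARID1A and ARID1B silencing. With a mean of at least 1 CPM, which tests fewer sites, 423 distal sites were lower after combined silencing, 74 higher between ARID1B hairpins, and 58 and 12 promoters called after ARID1A and ARID1B silencing. Abundance-trended offsets gave 4 promoters after ARID1B silencing. They gave 3 between ARID1A hairpins, as did library totals and no filter. Library totals gave 6 bins between combinations, and fitting only the groups compared 25 promoters between ARID1B hairpins. With all sites other than promoters as distal, medians were -0.40 and -0.20, or -0.42 and -0.18 relative to other distal sites, after combined and ARID1A silencing, and 43 were higher after ARID1A silencing. Summed reads gave -0.34 and -0.18 relative to other distal sites. Bins of 2 Mb gave 21, 18, 4 and 5 calls, and bins of 500 kb 63, 48, 21 and 23.

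Chosen after seeing the data, the count of lower distal sites per Mb after combined silencing was 11.3, at 0.95 of other chromosomes, which turns the direction. Against bins of other chromosomes with as many sites the difference in medians was -0.41 (5 to 19 sites), -0.12 (30 to 39) and -0.24 (40 to 59).

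Leaving out 1 library at a time gave 596 to 682 lower distal sites, distal medians of -0.52 to -0.45 (-0.54 to -0.46 relative to other distal sites) and promoter medians of 0.15 to 0.26 after combined silencing. After ARID1A silencing it gave 290 to 364 lower and 6 to 34 higher distal sites, 14 to 52 promoters, medians of -0.31 to -0.23 (-0.29 to -0.20 relative) and 0.15 to 0.25 at promoters. After ARID1B silencing it gave 205 to 261, 8 to 16 and 1 to 8, with medians of -0.21 to -0.12 (-0.20 to -0.11 relative) and 0.02 to 0.13. The lowest counts of higher sites and of promoters in both came without Control replicate 2, and the 52 promoters without shARID1A.2 replicate 2. ARID1A against ARID1B silencing gave 136 to 162, 42 to 60 and 5 to 15 promoters, lowest without shARID1A.4 replicate 1. The ARID1A hairpins gave 49 to 58, 17 to 26 and 3 to 10, lowest without shARID1A.2 replicate 2 for lower sites and promoters and without shARID1A.4 replicate 1 for higher sites. The 10 promoters came without shARID1A.2 replicate 1. The ARID1B hairpins gave 147 to 168, 79 to 120 and 7 to 23, the lowest higher sites and promoters without shARID1B.2 replicate 1. The combinations gave 69 to 117, 33 to 48 and 12 to 23, lowest without shARID1A/B.2.3 replicate 2 for lower sites and promoters and without shARID1A/B.4.2 replicate 2 for higher sites. Bins gave 28 to 39, 20 to 28, 8 to 12 and 5 to 9, the last lowest without shARID1A/B.4.2 replicate 1.

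Replicate numbers did not pair the libraries throughout. Over 63 same-numbered pairs the correlation of deviations ran from -0.281 to 0.471, with a median of 0.00829. It was over 0.1 in 12 pairs, and 12 of the 21 libraries correlated best with their own number, so some libraries may be paired. With the replicate block 688 distal sites were lower after combined silencing, 411 after ARID1A and 284 after ARID1B silencing, and 170 for ARID1A against ARID1B silencing. Depth limits weak sites most: 331 tested distal members lay below 0.5 CPM.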
